A study of Drosophila melanogaster with 9 samples.

Results

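The actin gene family of Drosophila was followed in S2R+ cells in which Hrb98DE, an RNA-binding protein of the hnRNP family, had been depleted. Actin is the globular protein that polymerises into the filaments of the cell cortex, of moving cell edges and of muscle. Flies encode it in 6 genes whose proteins are near-identical. Act5C and Act42A are cytoplasmic actins, made in most cells, whereas Act57B, Act79B, Act87E and Act88F are muscle actins, of which Act88F serves the flight muscle. In non-muscle cells, actin is folded by the CCT chaperonin, polymerised with the help of nucleators and turned over by severing proteins. The members are all 6 genes, matched by FlyBase identifier among the 17559 gene identifiers counted in each library.

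S2R+ is an adherent line from late Oregon R embryos. KD1 and KD2 cells received the first and the second double-stranded RNA (dsRNA) against Hrb98DE, and lacZ cells received a control dsRNA against a bacterial gene. All 3 groups were grown at 25 °C, took up dsRNA while starved of serum for 6 h and were collected on day 5, and polyadenylated RNA was sequenced from 3 replicates per group (numbered 1, 3 and 4 in KD1, 1, 2 and 4 in KD2, and 1, 2 and 3 in lacZ). The study's methods call the replicates biological, and these are bulk samples of 1 cell line, so that fewer expressing cells and less mRNA per cell cannot be told apart.

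The libraries held between 13040608 and 15931035 reads assigned to genes. The normalised read count (reads divided by a library scaling factor) of the target Hrb98DE lay between 867.3 and 1123 in the 6 knockdown samples and between 6763 and 7123 in lacZ. Its paralog Hrb87F was also lower, at 2457 to 2753 in KD1 and 1223 to 1585 in KD2 against 6017 to 6322 in lacZ. Replicates differed by more than sampling noise in every group (chi-square per degree of freedom 3.97 to 12.8), and the pairs farthest apart were lacZ replicates 1 and 2 and KD2 replicates 1 and 2 (11.1). These same pairs lie far apart in Act42A below.

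The members are spread over 4 chromosome arms of the BDGP6 assembly. Act5C (FBgn0000042) lies on chromosome X at 5900861 to 5905399 (plus strand), and its 5 transcripts of 1637 to 2863 bases cover 2978 exon bases. Act42A (FBgn0000043) lies on 2R at 6013910 to 6015689 on the minus strand, with a single transcript of 1626 bases. No other annotated gene overlaps either cytoplasmic locus. Act57B (FBgn0000044) lies on 2R at 20944021 to 20946431 on the plus strand and overlaps a small nucleolar RNA gene on its own strand. Act79B (FBgn0000045) lies on 3L at 21985210 to 21987190, Act87E (FBgn0000046) on 3R at 13425983 to 13428375 and Act88F (FBgn0000047) on 3R at 15439969 to 15442177, all on the plus strand. Act87E overlaps an annotated non-coding gene on the opposite strand. Because the 6 genes encode nearly the same protein, a read may align to more than 1 of them. Gene sequences were not examined here, and how such reads were divided among the paralogs was not tested.

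Nearly all actin reads in S2R+ cells belonged to the cytoplasmic genes. Between 131385 and 207091 reads per library fell on Act5C and Act42A, against 1 to 7 reads on the 4 muscle genes together. Muscle genes thus received 7.61 to 34.7 ppm of the actin reads. The family as a whole took 0.966% to 1.3% of all assigned reads. Only 2 of the 6 members, the cytoplasmic ones, passed the filter of a mean CPM (reads scaled to 1000000 assigned reads per library) above 1, as did 7406 of the 17559 genes.

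**Figure D1:**
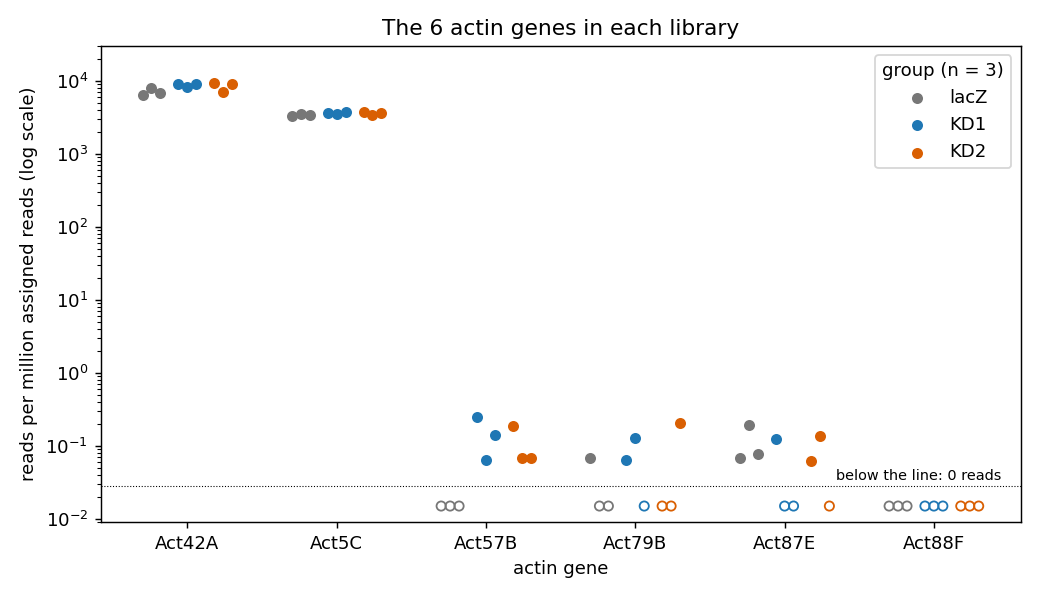
CPM (log axis) of the 6 actin genes in each of the 9 libraries, with points coloured by group (n = 3) and open points below the dotted line for libraries with 0 reads. The cytoplasmic genes lie between 3276 and 9250 CPM and no muscle gene exceeds 0.252.

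The muscle genes were close to the limit of detection in each group. Act88F had 0 reads in all 9 libraries. A floor of 3 reads in the group total is 0.066 CPM in KD1, 0.0667 in KD2 and 0.0694 in lacZ. For Act88F, the 95% exact Poisson interval reached up to 0.0812 CPM in KD1, 0.082 in KD2 and 0.0854 in lacZ. Act79B had 1, 2 and 0 reads in KD1, 0, 0 and 3 in KD2, and 1, 0 and 0 in lacZ. Act87E had 2, 0 and 0 reads in KD1, 1, 2 and 0 in KD2, and 1, 3 and 1 in lacZ. The groups overlapped in both genes, and at this depth no difference between them was detectable.

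Act57B, an actin of larval and embryonic body wall muscle, was the only muscle member in which the groups did not overlap. It had 4, 1 and 2 reads in KD1, 3, 1 and 1 reads in KD2 and 0 reads in each of the 3 lacZ libraries. Every knockdown library held at least 1 read and no lacZ library held any. All 6 knockdown samples lay above all lacZ samples in 6.16% of the 12915 genes with a read. Summed over each group, the level was 0.154 CPM in KD1 (95% exact Poisson interval 0.062 to 0.318), 0.111 in KD2 (0.0361 to 0.259) and 0 in lacZ (0 to 0.0854), and the intervals, which cover counting error only, overlapped. In a DESeq2 fit without the filter on low counts, the unadjusted p was 0.0335 in KD1 and 0.0715 in KD2 and independent filtering gave no adjusted p, so Act57B did not pass the test.

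The cytoplasmic genes were among the most abundant mRNAs of these cells. By raw reads, Act42A ranked between 4 and 6 among all genes in each library, and Act5C ranked between 16 and 22. Per kilobase of annotated exon, the level of Act42A was 4962 RPKM (CPM per kilobase) ± 698 (SD, n = 9), rank 8 of 7244 genes with a known length, and the level of Act5C was 1195 RPKM ± 58.9 (SD, n = 9), rank 83. Act42A was therefore the higher paralog in each library, with a ratio of RPKM values between 3.57 and 4.52. The ratio depends on the length assigned to Act5C, with a mean of 4.13 for all exon bases and of 2.27 for its shortest transcript.

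By group, the level of Act42A was 5384 RPKM ± 342 in KD1, 5165 ± 784 in KD2 and 4337 ± 549 in lacZ (SD, n = 3 each). The level of Act5C was 1232 RPKM ± 42.1 in KD1, 1214 ± 53.6 in KD2 and 1141 ± 47.7 in lacZ (SD, n = 3 each). KD1 and KD2 differed by less than their SDs in both genes, and the ranges of KD2 and lacZ overlapped.

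To ask whether Hrb98DE depletion altered cytoplasmic actin mRNA, each knockdown was compared with lacZ. Both genes had higher mean counts in both knockdowns, and neither passed the threshold of an adjusted p under 0.05 with a change above 1.3-fold. Thus 0 of the 2 actin genes tested were past the threshold in KD1, where 7.37% of all 7406 genes were, and 0 of 2 in KD2, where 8.13% were. At an unadjusted p under 0.05, DESeq2 gave 2 of 2 genes in KD1 (31.7% of all genes) and 1 of 2 in KD2 (33.2%). With edgeR's quasi-likelihood test it was 2 of 2 in KD1 (36.8% of all genes) and in KD2 (38%), again with 0 past the threshold.

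The normalised read count of Act42A was 135047, 120298 and 135768 in KD1 replicates 1, 3 and 4. It was 137747, 103482 and 135021 in KD2 replicates 1, 2 and 4. In lacZ replicates 1, 2 and 3 it was 92910, 119337 and 96795. All KD1 samples lay above all lacZ samples, although KD1 replicate 3 exceeded lacZ replicate 2 only narrowly, and KD2 replicate 2 fell within the lacZ range. In how many of all genes KD1 lay wholly above lacZ was not counted. For Act42A this gave a log2 fold change of 0.34 ± 0.15 (SE) in KD1 (1.27-fold, 95% interval 1.04 to 1.55, DESeq2 adjusted p = 0.0832) and 0.28 ± 0.15 (SE) in KD2 (1.22-fold, 0.997 to 1.49, DESeq2 adjusted p = 0.158).

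The call on Act42A turned on single libraries. Without lacZ replicate 2, Act42A passed the threshold in KD1 (log2 fold change 0.46, DESeq2 adjusted p = 0.00733) and in KD2 (0.40, DESeq2 adjusted p = 0.0196). Without KD2 replicate 2 it passed in KD2 (0.41, DESeq2 adjusted p = 0.01). Leaving out any other library of the groups compared left it below the threshold, with log2 fold changes of 0.27 to 0.40 in KD1 and 0.21 to 0.24 in KD2. The depth of lacZ replicate 2 (15655656 reads) and KD2 replicate 2 (14483901 reads) lay within the range of the other libraries. Over all 18 alternatives the adjusted p (DESeq2 or edgeR) of Act42A ranged from 0.00733 to 0.489 in KD1 and from 0.01 to 0.704 in KD2.

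Act5C varied less. Its normalised read count was 54811, 52503 and 56534 in KD1 replicates 1, 3 and 4, and 55838, 51333 and 54787 in KD2 replicates 1, 2 and 4. In lacZ replicates 1, 2 and 3 it was 47714, 52589 and 48487. The lacZ sample that was high in Act42A, replicate 2, was also high in Act5C and overlapped the lowest sample of each knockdown. The log2 fold change of Act5C was 0.14 ± 0.05 (SE) in KD1 (1.10-fold, 95% interval 1.02 to 1.18, DESeq2 adjusted p = 0.0444) and 0.12 ± 0.05 (SE) in KD2 (1.09-fold, 1.01 to 1.17, DESeq2 adjusted p = 0.0802). With no fold requirement, Act5C would thus count as changed in KD1, where 21.2% of all genes do, and not in KD2, where 23.6% do, and both intervals end below 1.3-fold. By the same measure the edgeR quasi-likelihood test gave Act42A in KD1 (adjusted p = 0.0262) and not Act5C (0.0539), and DESeq2 fitted to KD1 and lacZ alone gave both (adjusted p = 0.0412 and 0.0395). Scaled by library totals, the change in KD1 was 0.11 with a DESeq2 adjusted p of 0.101, and over all alternatives the adjusted p (DESeq2 or edgeR) ranged from 0.00339 to 0.38 in KD1 and from 0.00834 to 0.626 in KD2.

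**Figure D2:**
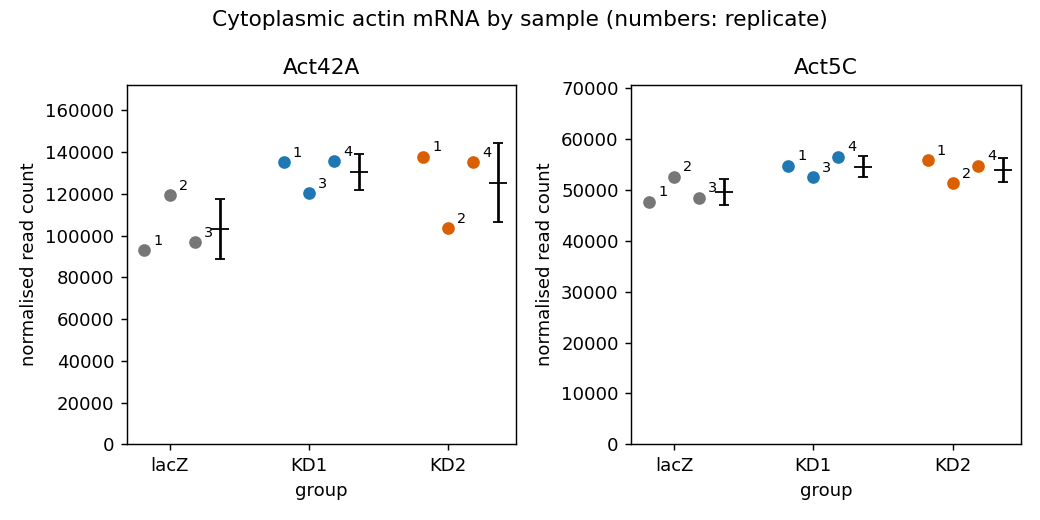
Normalised read counts (axis from 0) of Act42A and Act5C in the 3 samples of each group, numbered by replicate, with the mean and SD beside them. For Act42A, KD2 replicate 2 (103482) lies among the lacZ samples and lacZ replicate 2 (119337) lies just under the lowest KD1 sample (120298).

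The knockdowns were also compared with each other. The log2 fold change of KD1 against KD2 was 0.06 for Act42A (95% interval -0.23 to 0.34) and 0.02 for Act5C (-0.09 to 0.12), with a DESeq2 adjusted p of 0.98 for both. Neither gene passed the threshold (0 of 2), where 1 of all 7406 genes (0.0135%) did. In this comparison, independent filtering left an adjusted p for 2094 of the 7406 genes, both actins among them. At an unadjusted p under 0.05 it was 0 of 2 in DESeq2 and in edgeR, beside 5.18% and 8.02% of all genes. The sign of both differences turned without KD2 replicate 2, to -0.06 and -0.02, and that of Act5C also without KD1 replicate 4, to -0.01.

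**Figure D3:**
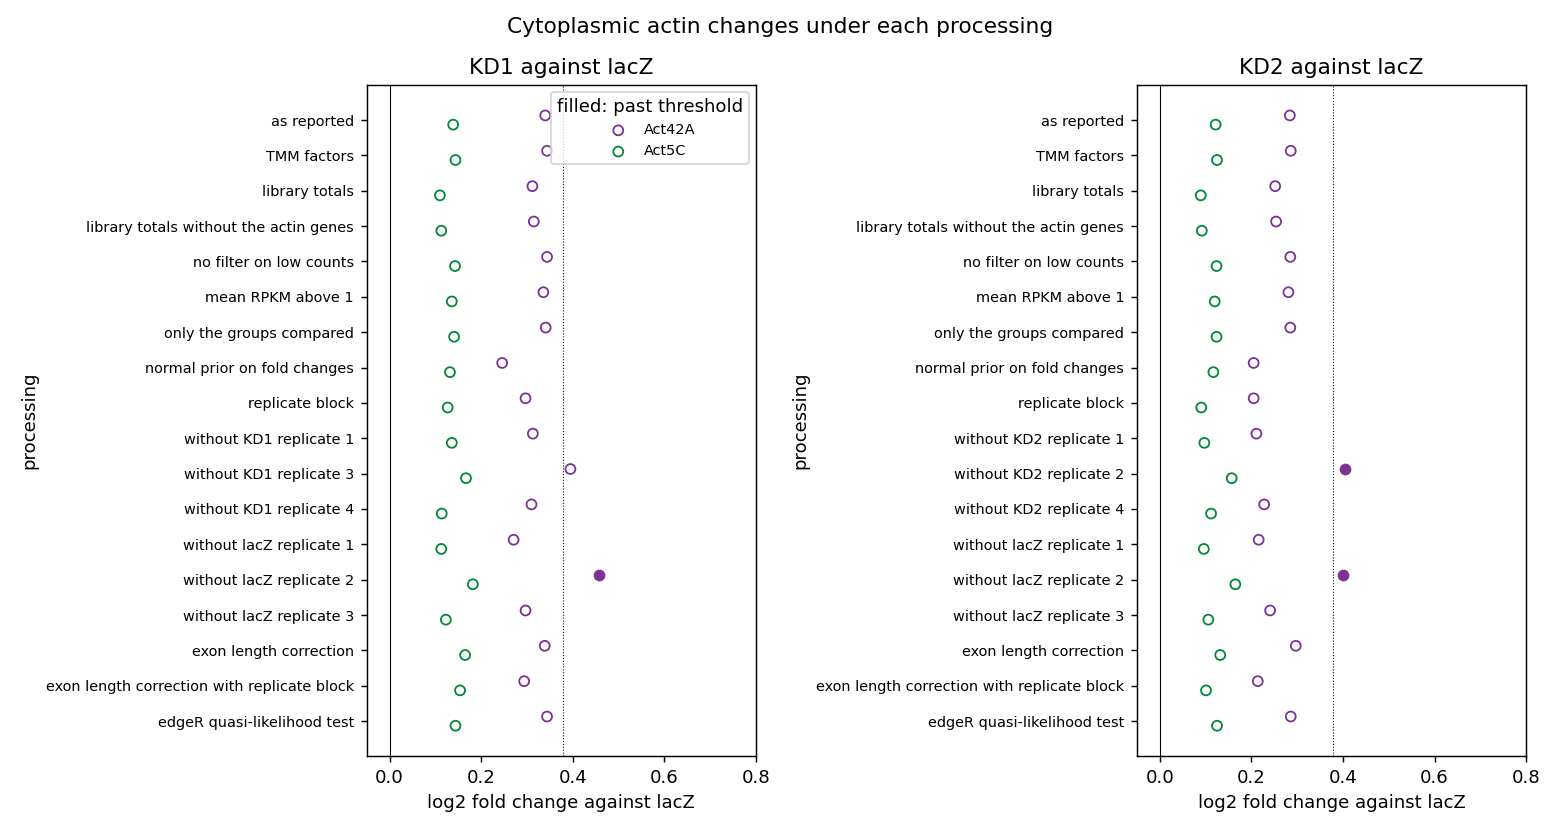
Log2 fold changes against lacZ of Act42A and Act5C under each processing choice, for KD1 (left) and KD2 (right), with filled points past the threshold and a dotted line at 1.3-fold. All values are above 0, and Act42A is past the threshold without lacZ replicate 2 (0.46 and 0.40) and, in KD2, without KD2 replicate 2 (0.41).

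The balance between the cytoplasmic paralogs was then read within each library, where it does not depend on scaling. Act42A had 2.46, 2.29 and 2.40 reads per Act5C read in KD1 replicates 1, 3 and 4, and 2.47, 2.02 and 2.46 in KD2 replicates 1, 2 and 4. In lacZ replicates 1, 2 and 3 it had 1.95, 2.27 and 2.00. The KD1 samples lay above the lacZ samples, whereas KD2 replicate 2 was lower than lacZ replicate 2. As a share of actin reads, Act42A took 69.6% to 71.1% in KD1, 66.8% to 71.2% in KD2 and 66.1% to 69.4% in lacZ.

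On the log2 scale the mean ratio was 1.25 ± 0.05 in KD1, 1.21 ± 0.17 in KD2 and 1.05 ± 0.12 in lacZ (SD, n = 3 each). The difference from lacZ was 0.21 in KD1 (exact two-sided permutation test, p = 0.1, the smallest that 3 against 3 samples allow) and 0.16 in KD2 (exact permutation p = 0.2). KD1 and KD2 differed by 0.05 (exact permutation p = 1). Without KD2 replicate 2, the difference of KD2 from lacZ was 0.255 and that of KD1 from KD2 turned to -0.05. The exact permutation p was 0.2 for each, the smallest that 2 against 3 samples allow. With both knockdowns pooled, the ratio was 0.18 higher than in lacZ (exact permutation p = 0.0476 for 6 against 3 samples, and 0.19 after Benjamini-Hochberg adjustment over the 4 comparisons), so the difference did not hold after adjustment. The pooled difference ranged from 0.14 to 0.25 when single libraries were left out.

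**Figure D4:**
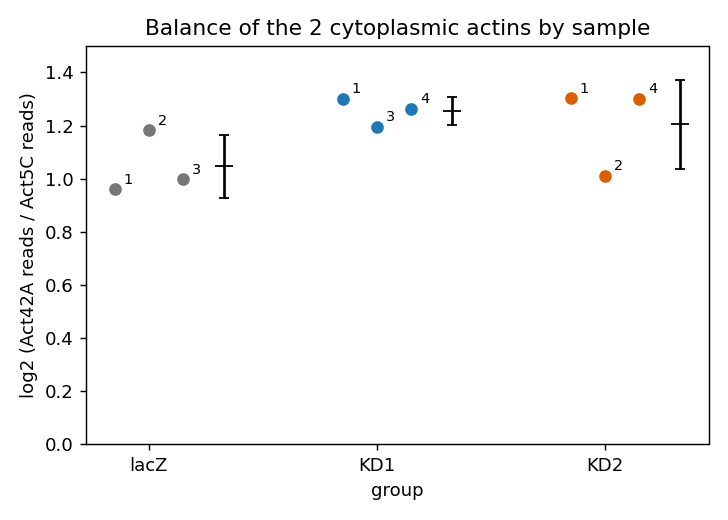
Log2 ratio of Act42A to Act5C reads (axis from 0) in each sample, numbered by replicate, with the mean and SD of each group (n = 3). KD2 replicate 2 (1.01) lies near lacZ replicates 1 (0.96) and 3 (0.997), and lacZ replicate 2 (1.18) lies near KD1 replicate 3 (1.196).

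The paralogs differed in their spread between replicates. The residual SD of log2 counts within groups was 0.18 for Act42A and 0.06 for Act5C, against a median of 0.05 among the 100 most abundant genes, in which Act42A had rank 5 and Act5C rank 36 from the most variable. The deviations of Act42A from its group mean were -0.27 in KD2 replicate 2, -0.14 in lacZ replicate 1 and 0.22 in lacZ replicate 2. In the same libraries Act5C deviated by -0.07, -0.06 and 0.09, so that the paralogs moved the same way with a smaller amplitude in Act5C. Across all 9 libraries the deviations of both genes shared their sign.

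The levels of the cytoplasmic paralogs followed each other across the 9 samples (Pearson r = 0.975 of log2 normalised counts, a description over points that share libraries and their scaling). Among 7405 other genes, Act5C ranked 8 by likeness to Act42A, and Act42A ranked 28 by likeness to Act5C. Most like Act42A were pav (r = 0.991), a kinesin of cell division, FBgn0025687 (r = 0.983) and nudC (r = 0.98), a dynein-associated chaperone. Most like Act5C were FBgn0267727 (r = 0.997), Hsp110 (r = 0.99), a chaperone of the heat shock family, and Uba1 (r = 0.989), the ubiquitin-activating enzyme. The reference tables used here give no name for these 2 identifiers.

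The values of pav, which was chosen for its likeness to Act42A, are given as a description. Its normalised read count was 3175, 2804 and 3203 in KD1 replicates 1, 3 and 4, and 3395, 2483 and 3185 in KD2 replicates 1, 2 and 4. In lacZ replicates 1, 2 and 3 it was 2318, 2867 and 2368. As that choice implies, KD2 replicate 2 was within the lacZ range and lacZ replicate 2 was the highest control. What the libraries with low or high Act42A have in common was not tested.

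Genes that act on actin passed the threshold in few cases, and at adjusted p alone about as often as all genes. Of 71 genes in 7 lists, 63 were tested, 4 fell under the CPM filter and 4 were not analysed here. In KD1 1 of the 63 passed the threshold and in KD2 3 of 63, beside 7.37% and 8.13% of all genes, and the median log2 fold change over the 63 genes was -0.005 in KD1 and 0.005 in KD2, against 0.0003 and 0.0037 over all genes. With no fold requirement, 14 of 63 changed in KD1 (10 up and 4 down) and 16 of 63 in KD2 (10 up and 6 down), beside 21.2% and 23.6% of all genes.

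Past the 1.3-fold limit, the gene that fell with both dsRNAs was spir, which encodes Spire, a nucleator that lines up actin monomers. Its normalised read count was 545.2, 502.4 and 556.4 in KD1, 624.4, 519.5 and 612.1 in KD2, and 796.5, 810 and 876.9 in lacZ. All 6 knockdown samples were below all lacZ samples, and the share of all genes for which this holds was not counted. The log2 fold change of spir was -0.63 ± 0.09 (SE) in KD1 (DESeq2 adjusted p = 2.03e-11) and -0.50 ± 0.09 (SE) in KD2 (DESeq2 adjusted p = 1.82e-07). The formin capu, a nucleator that works with Spire, had log2 fold changes of -0.15 and -0.02 and did not pass (DESeq2 adjusted p = 0.156 and 0.891).

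The other genes past the threshold, named after their values were seen, rose in KD2. For tmod, tropomodulin, which caps the slow-growing filament end, the normalised read count was 5703 to 6080 in KD1, 6041 to 6352 in KD2 and 4442 to 4579 in lacZ. Its log2 fold change was 0.465 ± 0.05 (SE) in KD2 (DESeq2 adjusted p = 2.74e-21) and 0.38 ± 0.05 (SE) in KD1 (DESeq2 adjusted p = 5.43e-14), where it lay just under 1.3-fold. DAAM, a formin, had 1446 to 1583 normalised reads in KD2, 1279 to 1381 in KD1 and 1040 to 1241 in lacZ. Its log2 fold change was 0.39 ± 0.07 (SE) in KD2 (DESeq2 adjusted p = 2.41e-06) and 0.19 ± 0.07 (SE) in KD1, under 1.3-fold (DESeq2 adjusted p = 0.0452).

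The 7 tested subunits of the CCT chaperonin, which folds newly made actin and tubulin, were all higher on average in both knockdowns, by log2 fold changes of 0.10 to 0.23 in KD1 and 0.05 to 0.22 in KD2. With no fold requirement, 4 of 7 rose in KD1 (CCT1, CCT2, CCT5 and CCT6), where 9.71% of all genes did, and 2 of 7 in KD2 (CCT2 and CCT5), where 11.3% did. None of these changes reached 1.3-fold. The median log2 fold change of the list was 0.16 in KD1 and 0.14 in KD2. CCT5 had 15649 to 17116 normalised reads in KD1, 14845 to 16914 in KD2 and 13207 to 15091 in lacZ, and lacZ replicate 2 was the highest control, as in Act42A.

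Other genes on these lists rose or fell by less than 1.3-fold. With no fold requirement, cpa, a filament end capping subunit (log2 fold change 0.17 in KD1 and 0.12 in KD2), sqh, the myosin light chain (0.17 and 0.13), and the formin Frl (0.14 and 0.23) rose with both dsRNAs. The crosslinkers Actn (-0.18 and -0.14) and Fim (-0.11 and -0.13) fell with both. In KD2 alone, HSPC300 (-0.25), Arpc3A (-0.215) and capt (-0.13) fell, whereas Moe (0.156) and Cyfip (0.126) rose. Mical fell in KD1 alone (-0.159). These genes were named after their values were seen. The Arp2/3 complex, which starts branched filaments, had a median log2 fold change of -0.008 in KD1 and -0.055 in KD2 over 7 subunits. Proteins that bind monomers, sever or cap had medians of -0.031 and 0.002 over 12 genes. They include chic (profilin, log2 fold change -0.02 in KD1 and 0.03 in KD2) and tsr (cofilin, 0.08 and 0.03), which did not pass (DESeq2 adjusted p = 0.818 and 0.657 for chic, 0.141 and 0.71 for tsr). The regulators Mrtf, a coactivator that monomeric actin restrains, and bs, the serum response factor it binds, did not pass, with log2 fold changes of -0.02 and 0.01 for Mrtf (DESeq2 adjusted p = 0.93 and 0.975) and -0.10 and -0.12 for bs (0.595 and 0.516). Mef2, a muscle transcription factor on the same list, rose by less than 1.3-fold in both, with log2 fold changes of 0.17 (DESeq2 adjusted p = 0.029) and 0.23 (DESeq2 adjusted p = 0.00193).

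**Figure D5:**
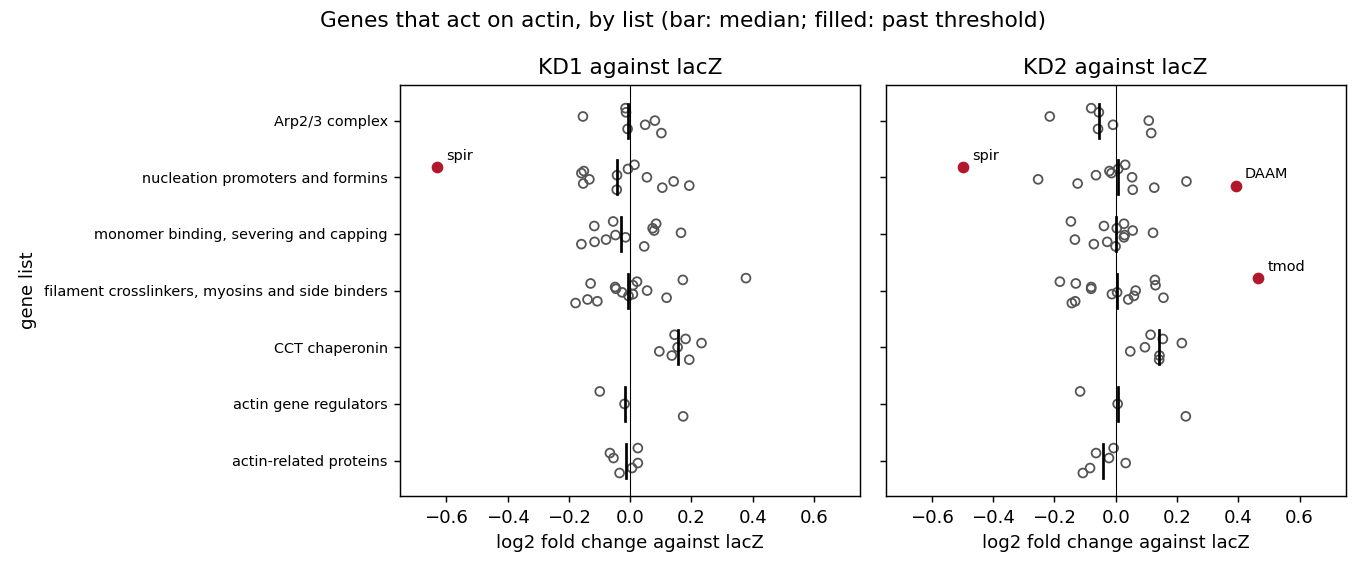
Log2 fold changes against lacZ of the 63 tested genes that act on actin, 1 point per gene and 1 row per list, for KD1 (left) and KD2 (right), with the list median as a bar and genes past the threshold filled and named. The CCT subunits all lie above 0, and spir stands apart at -0.63 and -0.50.

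Markers of muscle and of hemocytes (fly blood cells, which S2R+ cells resemble) were read in the same libraries. Of 16 muscle markers, 15 were found and 6 passed the CPM filter. Their levels differed widely. TpnC47D had 0 reads, Mlc1 had 1 read in all and Mhc, muscle myosin, had 1 to 3 reads per library. In contrast, mib2 had 1224 to 1700 reads per library and Strn-Mlck had 652 to 920. The list summed to 438 to 464 CPM in KD1, 457 to 490 in KD2 and 429 to 447 in lacZ, mostly from Mf, with 3301 to 5203 reads per library. Of the 6 tested, 1 muscle marker passed the threshold in each knockdown, beside 7.37% and 8.13% of all genes. It was TpnC4, a troponin C, with 51 to 63 reads in KD1, 41 to 52 in KD2 and 248 to 290 in lacZ. Its log2 fold change was -2.27 ± 0.17 (SE) in KD1 (DESeq2 adjusted p = 7.24e-39) and -2.51 ± 0.175 (SE) in KD2 (DESeq2 adjusted p = 1.22e-43). With no fold requirement, Mf rose (0.23 in KD1 and 0.33 in KD2) and Strn-Mlck fell (-0.27 and -0.34). In KD2, mib2 rose as well (0.17).

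Of 12 hemocyte markers, 10 passed the filter, among them srp with 2439 to 3303 reads and crq with 4815 to 5986 reads per library. The list summed to 894 to 916 CPM in KD1, 927 to 954 in KD2 and 846 to 901 in lacZ. In both knockdowns 5 of the 10 rose past the threshold (Hml, Sr-CI, Ppn, Col4a1 and vkg), as did 2.24% of all genes in KD1 and 2.93% in KD2. Other members had negative log2 fold changes that did not pass, He (-0.67 in KD1 and -0.48 in KD2), eater (-0.305 and -0.34) and crq (-0.10 and -0.15). The part of these shifts in the actin counts was not tested.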

How the data were processed

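The deposited files hold raw read counts per gene for 9 polyadenylated RNA libraries, 1 per sample, prepared from 500 ng of RNA with 11 PCR cycles. Per the submitters' processing notes and the study's methods, the authors aligned reads with STAR (2.5.1b) to BDGP6, kept primary alignments of reads without too many matches and counted with featureCounts (Subread 1.4.6-p2). The strand setting is not given in the sources used here. Library totals are 13040608 to 15931035 reads.

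Groups came from sample titles. Genes with a mean CPM above 1 were fitted with DESeq2 (1.42.0, R 4.3.3) over all 9 samples, with Wald tests. Benjamini-Hochberg adjustment ran over the genes left by independent filtering at an alpha of 0.1. The ratio of the cytoplasmic genes was tested by exact permutation. Positions and exon lengths came from Ensembl release 115 of the same assembly. Alternatives were edgeR (4.0.16), other scalings and filters, the replicate block and leaving out each sample. The exon length correction and the shortest transcript were added after seeing the data. The exact Poisson intervals and the floors cover counting error only, and they treat reads as independent molecules, which PCR copies are not. The intervals of the fold changes come from the DESeq2 standard errors instead. The procedure was tested on simulated counts.

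Named genes were the 6 actins, Hrb98DE, Hrb87F, chic, tsr, Mrtf, bs, up to 4 genes per list past the threshold in both knockdowns with the same sign, and the 3 genes most correlated with each cytoplasmic actin. Members and lists were chosen with earlier results of these data known.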

Additional observations from a re-analysis of the deposited data

How the results depend on the processing

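Both cytoplasmic actin genes kept their positive log2 fold change against lacZ under all 18 alternatives, from 0.25 to 0.46 (Act42A, KD1), 0.21 to 0.41 (Act42A, KD2), 0.11 to 0.18 (Act5C, KD1) and 0.09 to 0.17 (Act5C, KD2). The count of actin genes past the threshold ranged from 0 to 1 in KD1 and from 0 to 1 in KD2 when single libraries were left out. With no fold requirement it was 1 in KD1 in DESeq2 over all 9 samples (Act5C) and 1 in edgeR (Act42A). DESeq2 fitted to KD1 and lacZ alone, or without lacZ replicate 2, then gave both genes in KD1. In KD2, leaving out lacZ replicate 2 or KD2 replicate 2 also gave both genes with no fold requirement. The exon length correction gave Act5C in KD2 (DESeq2 adjusted p = 0.0397). In KD1 against KD2, leaving out single libraries gave -0.0645 to 0.129 (Act42A) and -0.0178 to 0.0447 (Act5C). The differences turned negative without KD2 replicate 2 (Act42A -0.0645, Act5C -0.0178) and without KD1 replicate 4 (Act5C -0.00874). The log2 ratio of Act42A to Act5C differed between KD1 and KD2 by -0.0483 to 0.0973 when single libraries were left out. For both knockdowns against lacZ it ranged from 0.14 to 0.25, with exact permutation p from 0.0357 to 0.143, and with 2 lacZ samples the smallest p is 0.0714. With the shortest transcript, the level of Act5C was 2174.76 RPKM and the RPKM ratio 2.27. No scaling moved the median of all genes by over 0.1. The causes of these shifts were not tested.

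The replicate numbers do not pair the samples (correlations of same-numbered deviations -0.497 to 0.21). With the replicate block, no actin gene passed the threshold, the changes against lacZ were 0.297 and 0.205 (Act42A) and 0.127 and 0.0906 (Act5C), the ratio of KD2 against lacZ over shared numbers was 0.0852, and that of KD1 against KD2 over shared numbers turned to -0.0195. The 4 muscle genes together had only 1 to 7 reads per library, which limits any comparison between groups in them.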
